A study of Castanea mollissima with 6 samples.

Results

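In roots of Castanea mollissima, the Chinese chestnut, 80 abundant transcripts were at least 2-fold lower in the libraries labelled r_3m than in those labelled r_1m. They were chosen from measured values. A gene was taken when its mean level was at least 500 FPKM in r_1m and its difference d was -1 or lower and above -4. FPKM are sequenced fragments corrected for the length of the transcript and for how many fragments a library had mapped. The difference d is log2(mean r_3m FPKM + 1) minus log2(mean r_1m FPKM + 1), so -1 stands for about a 2-fold lower level. The 80 genes are among 230 that reached 500 FPKM in r_1m and among 33991 in the whole table. Because the choice used both group means, the differences between the groups are given as a description, and no test of them is offered as support.

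The study compares r_3m roots with r_1m roots, with 3 libraries in each group. Both groups are total RNA from root tissue made into directional libraries, and the labels give no treatment, genotype, cultivar or plant age. They do not spell out the part of the name after the r, so both groups keep their names here. Replicates are numbered in the order of the records, and the numbers pair nothing across the groups.

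A root sample is a mixture of tissues. The tip holds dividing cells, the zone behind it holds elongating cells and root hairs, and older parts hold mature cortex, vascular strands and lignified cells. In plant roots the most abundant messenger RNAs commonly code for proteins of translation, water channels, cell wall proteins and stress or defence proteins. The table gives gene IDs with no gene names or products, so which of these classes any of the 80 genes belongs to was not analysed here, and the root label could not be checked against marker genes. Genes are therefore described by the first 4 characters of their ID and by their rank in mean r_1m FPKM among the 80. Only 2 IDs are printed in full, those of the gene highest in r_1m and of the gene with the lowest d.

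Relative sequencing depth, read from the steps of low FPKM values, was 64.0%, 84.4% and 89.0% of the deepest library in r_3m replicates 1, 2 and 3. It ran from 88.0% to 100% in r_1m. The number of fragments behind a gene at these high levels is unknown. Total FPKM was lower in every r_3m library, at 95.9% of the r_1m mean. Whether each library stands for a plant of its own is not stated in the labels, so p-values and SDs may measure technical spread only. The groups carry separate runs of record numbers, so a batch, if there was one, and the group cannot be told apart.

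Together the 80 genes took a far smaller share of the summed FPKM in r_3m, which is largely a result of how they were chosen. Their FPKM summed to 2.94%, 2.77% and 3.32% of the library total in r_3m replicates 1, 2 and 3, and to 9.53%, 9.37% and 9.21% in r_1m replicates 1, 2 and 3. The mean share was 3.01% ± 0.280 in r_3m and 9.37% ± 0.162 in r_1m (SD, n = 3 each). The 2 groups were far apart, and the highest r_3m library, replicate 3, stayed well below the lowest r_1m library. In a bulk sample, fewer cells of a type and less RNA per cell cannot be told apart. The summed FPKM of the 80 genes in r_3m was 30.8% of that in r_1m. The other 150 genes that reached 500 FPKM in r_1m held 16.6%, 16.1% and 17.0% of the total in the r_3m libraries and 16.6%, 16.5% and 16.3% in the r_1m libraries. As a sum their share was therefore about the same in both groups, although 100 of the 150 had a d below 0 and their median d was -0.33. The choice had taken the lower genes out of this set. Its sum also holds very abundant genes that moved in opposite directions. The mean of its highest r_1m gene was 11192 FPKM in r_1m and 5768 FPKM in r_3m. Its highest r_3m gene had means of 3620 FPKM in r_1m and 7905 FPKM in r_3m.

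**Figure D1:**
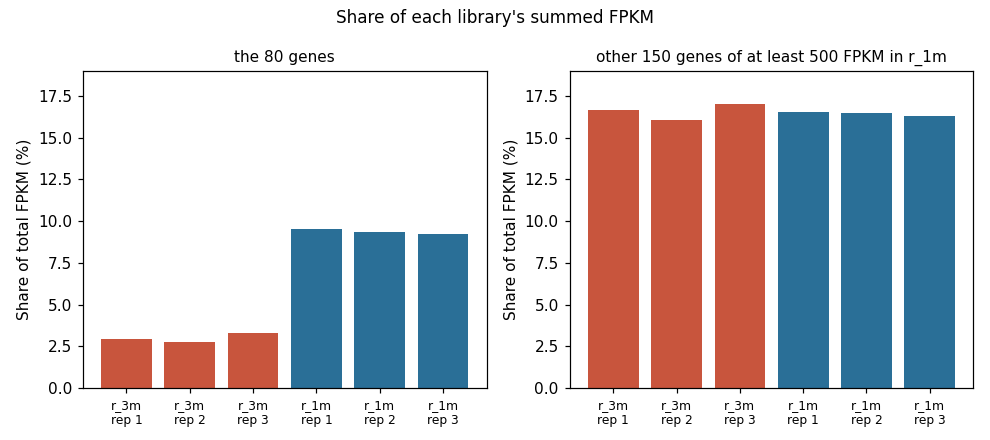
Share of each library's summed FPKM (%) held by the 80 genes (left) and by the other 150 genes of at least 500 FPKM in r_1m (right), with 1 bar per library, r_3m in red and r_1m in blue. The 80 genes hold 2.77% to 3.32% in r_3m and 9.21% to 9.53% in r_1m, while the shares of the other 150 genes lie between 16.1% and 17.0% in all 6 libraries.

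Across the 80 genes the median level was 259, 265 and 295 FPKM in the r_3m libraries and 803, 817 and 826 FPKM in the r_1m libraries. Means of single genes ran from 46.2 to 1220.3 FPKM in r_3m and from 500.2 to 3991 FPKM in r_1m. The median d was -1.52 and the median ratio of means 2.87-fold lower, beside a median d of -0.33 over the other 150 abundant genes, -0.70 over all 230 abundant genes and 0.02 over the 20038 genes tested, those with a mean of at least 1 FPKM. All 80 passed that filter. All 80 had their 3 r_3m values below their 3 r_1m values, which is largely a result of how they were chosen. Among all tested genes 36.7% showed such a separation, and among the other 150 abundant genes 58.7%. For 60 of the 80 genes the highest r_3m library was below 50% of the lowest r_1m library, a gap that the choice favours. Such a gap was found for 13.0% of all tested genes and for 28.7% of all 230 abundant genes. All 80 were also called lower in a limma fit over all genes (adjusted p below 0.05), beside 33.6% of all tested genes; the same contrast chose them, so nothing is read from this count.

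**Figure D2:**
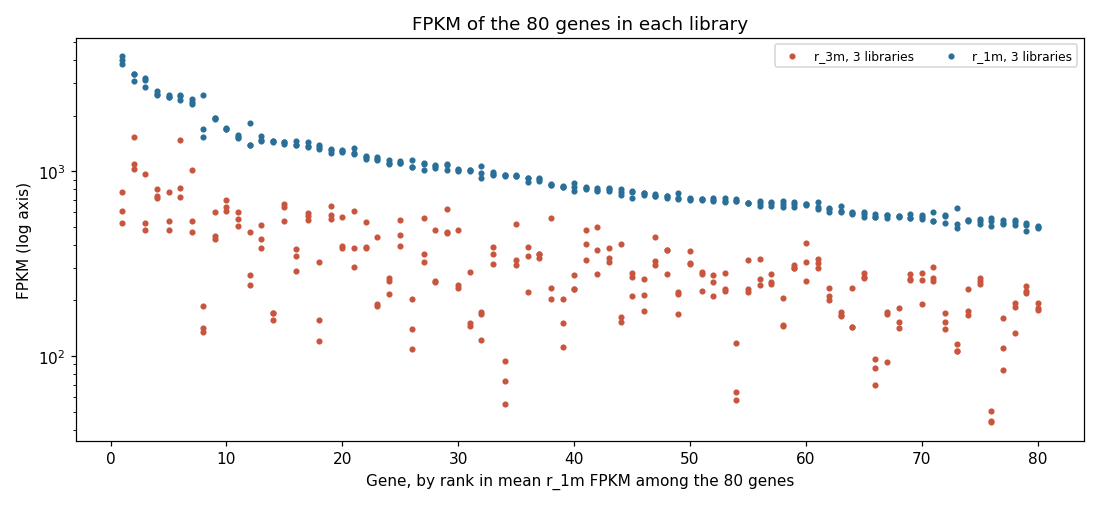
FPKM (log axis) of each of the 80 genes in the 3 r_3m libraries (red) and the 3 r_1m libraries (blue), with the genes ordered by their mean r_1m FPKM. For most genes the r_1m points lie almost on top of each other (exceptions at ranks 8, 12 and 73), while the r_3m points lie lower and are spread more widely.

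The gene highest in r_1m among the 80 was Cm02G00976.gene. It had 772, 607 and 527 FPKM in r_3m replicates 1, 2 and 3, and 4193, 3995 and 3786 FPKM in r_1m replicates 1, 2 and 3. The groups lay far apart, with the highest r_3m value at 20.4% of the lowest r_1m value. Its mean was 635 ± 125 FPKM in r_3m and 3991 ± 203 FPKM in r_1m (SD, n = 3 each), a d of -2.65. In the limma fit its log2 fold change was -2.67 ± 0.14 (SE). It was the second most abundant transcript of the whole table in r_1m and stood at rank 119 in r_3m.

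The next 4 genes by r_1m level differed in how far their r_3m libraries scattered. A Cm08 gene at rank 2 had 1093, 1028 and 1539.8 FPKM in r_3m and 3342, 3346 and 3077 FPKM in r_1m (d of -1.41). It was the highest of the 80 in r_3m, where it held place 33 among all genes, and replicate 3 was its highest r_3m library. A Cm10 gene at rank 3 had 523, 483 and 967 FPKM in r_3m and 3181, 3099 and 2841 FPKM in r_1m (d of -2.21). Here too replicate 3 was well above the other r_3m libraries, yet far below all r_1m libraries. A Cm04 gene at rank 4 had 799, 735 and 720.3 FPKM in r_3m and 2702, 2609 and 2587 FPKM in r_1m (d of -1.81). Its r_3m libraries were close together, with a coefficient of variation (SD as a share of the mean) of 5.59%. A Cm11 gene at rank 5 had 772, 541 and 481 FPKM in r_3m and 2523, 2588 and 2516 FPKM in r_1m (d of -2.09), with replicate 1 the highest of r_3m.

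Among ranks 6 to 10 there were 4 Cm01 genes and 1 Cm03 gene. The Cm01 gene at rank 6 had 726, 814 and 1477 FPKM in r_3m and 2418, 2539.6 and 2573 FPKM in r_1m (d of -1.32). The Cm01 gene at rank 7 had 536, 471 and 1013 FPKM in r_3m and 2471, 2371 and 2325 FPKM in r_1m (d of -1.83). In both, r_3m replicate 3 was the high library of its group. The Cm03 gene at rank 9 had 428, 449 and 605 FPKM in r_3m and 1934, 1929 and 1916 FPKM in r_1m (d of -1.96). Its r_1m libraries were nearly identical, with a coefficient of variation of 0.502%, against 19.6% in r_3m. The Cm01 gene at rank 10 had 639.6, 698 and 606 FPKM in r_3m and 1713, 1698 and 1695 FPKM in r_1m (d of -1.39), with little scatter in either group.

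The largest differences were found in 5 genes with a d below -3. Cm09G01413.gene, at rank 34 in r_1m level, had the lowest d of the 80. It had 94.2, 73.7 and 55.2 FPKM in the r_3m libraries and 949, 952 and 948 FPKM in the r_1m libraries. The r_1m libraries agreed within 0.205% (coefficient of variation), and each r_3m library was below 10% of them. The means were 74.4 ± 19.5 FPKM in r_3m and 949 ± 1.94 FPKM in r_1m (SD, n = 3 each), with a d of -3.66 and a limma log2 fold change of -3.69 ± 0.17 (SE). The gene stood at rank 79 of the table in r_1m and at rank 2644 in r_3m.

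The Cm01 gene at rank 8 followed with a d of -3.63. It had 187, 142 and 136 FPKM in r_3m and 2594, 1683 and 1523 FPKM in r_1m. Unlike most of the 80, it varied more in r_1m, where replicate 1 was 1.62 times the mean of replicates 2 and 3. A Cm07 gene at rank 76 had 50.2, 44.5 and 43.7 FPKM in r_3m and 505, 536 and 559 FPKM in r_1m (d of -3.50). This was the lowest r_3m level of the 80, at rank 4308 of the table, and its r_3m libraries lay close together. A Cm01 gene at rank 14 had 156, 171 and 172 FPKM in r_3m and 1433, 1459.9 and 1466 FPKM in r_1m (d of -3.12). A Cm07 gene at rank 54 had 64.2, 57.7 and 117 FPKM in r_3m and 694, 686 and 705 FPKM in r_1m (d of -3.11). Of these last 2 genes, the Cm01 gene was even across the r_3m libraries and the Cm07 gene was high in replicate 3.

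Most of the differences were smaller. A d between -1 and -2 was found for 60 of the 80 genes, with a median mean of 320 FPKM in r_3m and 756 FPKM in r_1m. Between -2 and -3 there were 15 genes, with medians of 199 FPKM in r_3m and 1117 FPKM in r_1m. The middle 50% of the d values lay between -2.01 and -1.28. By level, 7 of the 80 genes were at or above 2000 FPKM in r_1m (median d of -1.83), 24 were between 1000 and 2000 FPKM (-1.68) and 49 were between 500 and 1000 FPKM (-1.50). Over the 80 genes the correlation of log2 mean r_1m FPKM with d was weak, at a Pearson r of -0.21; both values contain the same r_1m libraries, and genes are not independent replicates.

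The same direction prevailed among abundant r_1m genes in general. A d of -1 or lower was found for 86 of the 230 genes of at least 500 FPKM in r_1m (37.4%), beside 15.6% of all tested genes, and a d of 1 or higher for 8 of the 230. Choosing genes by a high r_1m level favours this direction. Seen from the other side, 178 genes reached 500 FPKM in r_3m, of which 49 had a d of 1 or higher and 13 a d of -1 or lower; these 13 are all among the 80. The 80 genes made up 7 of the 14 genes at or above 2000 FPKM in r_1m, 24 of the 60 between 1000 and 2000 FPKM, and 49 of the 156 below that.

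**Figure D3:**
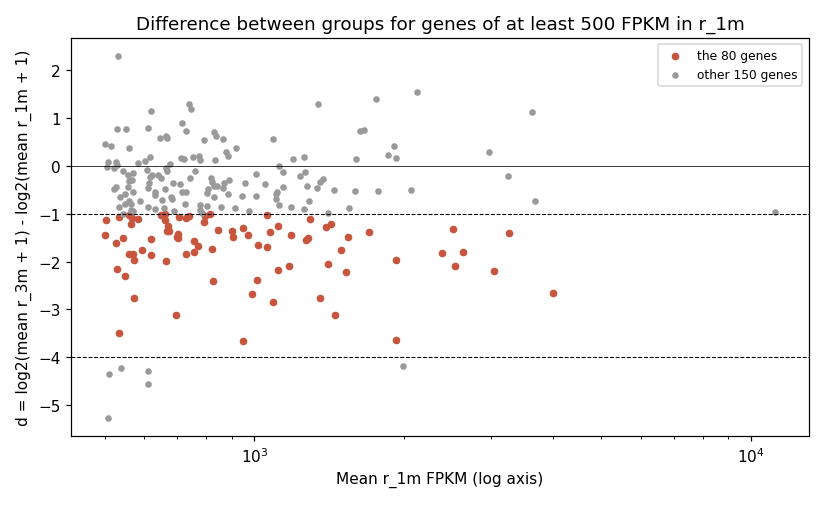
Difference d (log2 scale) against mean r_1m FPKM (log axis) for the 230 genes of at least 500 FPKM in r_1m, with the 80 genes in red and the other 150 in grey. Dashed lines mark the limits of -1 and -4. A group of 6 genes lies below the lower limit and 8 genes lie at 1 or higher.

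The limits of the choice cut through a continuous range at -1. The gene nearest inside it, with the prefix Cm06, had 409, 323 and 254 FPKM in r_3m and 663, 661 and 654 FPKM in r_1m (d of -1.003). The nearest outside it, a Cm11 gene with a d of -0.998, had 251, 204 and 360.3 FPKM in r_3m and 474, 593 and 565 FPKM in r_1m. These genes were alike in d, so the limit of -1 is a convention. At the other end, the nearest gene outside had a d of -4.19, a Cm02 gene with 111, 121 and 92.9 FPKM in r_3m and 1868, 2052 and 2069.6 FPKM in r_1m. A wider step in d separated it from Cm09G01413.gene inside the limit. At the limit on level, a Cm01 gene at 500.2 FPKM in r_1m (d of -1.44) was inside, and a Cm11 gene at 496 FPKM (d of -1.58) was outside.

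Although lower, most of the 80 transcripts were still well expressed in r_3m. Means between 100 and 500 FPKM were found for 63 of them, 13 were still at or above 500 FPKM, and 4 were below 100 FPKM. Library by library, 14, 10 and 20 of the 80 were at or above 500 FPKM in r_3m replicates 1, 2 and 3, against 80, 79 and 78 in r_1m replicates 1, 2 and 3. The median rank in the table was 494.5 in r_3m and 103.5 in r_1m. Of the 80, 3 were among the 100 highest genes of r_3m and 38 among the 100 highest of r_1m. The lowest value of any of the 80 in a single library was 43.7 FPKM. These levels are set in part by the choice, which asked for 500 FPKM in r_1m and a d above -4. It left out 6 abundant genes with a d of -4 or lower, whose lowest r_3m mean was 12.3 FPKM.

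Each r_3m library alone showed the lower level, but not to the same degree. Against the r_1m mean, the median d was -1.70 in r_3m replicate 1, -1.73 in replicate 2 and -1.41 in replicate 3. A d of -1 or lower was reached by 75 of the 80 genes in replicate 1, by 78 in replicate 2 and by 70 in replicate 3. The highest single value was -0.59, in replicate 3, so every one of the 80 genes was below its r_1m mean in each r_3m library. The choice used the mean of these same 3 libraries, so these counts are largely a result of it.

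The scatter between libraries of the same group played no part in the choice, apart from its effect on the means. The median SD of log2(FPKM + 1) was 0.25 between the r_3m libraries and 0.03 between the r_1m libraries, and it was larger in r_3m for 75 of the 80 genes. That count is close to the 136 of the other 150 abundant genes (90.7%) with a larger SD in r_3m. The other 150 abundant genes had medians of 0.11 in r_3m and 0.03 in r_1m. Because the 80 genes lie lower in r_3m, genes of a like r_3m level were also set beside them. The 1677 other genes with a mean of 100 to 500 FPKM in r_3m had a median SD of 0.12, against 0.25 for the 63 genes of the 80 in that range. The 97 of these 1677 that also had a d of -1 or lower and above -4 had a median of 0.18. Their r_1m means are under 500 FPKM, so they lie in the lower part of that r_3m range and match the 63 genes less closely in level. The median scatter in r_3m was wider among the 63 genes than among either set, as a description over genes that share the same 3 libraries.

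Much of that scatter came from r_3m replicate 3. Without it the median SD of the 80 genes in r_3m was 0.10, against 0.23 without replicate 1 and 0.29 without replicate 2; for the other 150 genes it was 0.07 without replicate 3. Over the 80 genes, log2 FPKM correlated at a Pearson r of 0.956 between r_3m replicates 1 and 2, at 0.863 between replicates 2 and 3 and at 0.807 between replicates 1 and 3. Between the r_1m libraries the correlations were 0.986 to 0.998. Replicate 3 was the highest r_3m library for 41 of the 80 genes and the lowest for 26. Among the other 150 genes it was the highest for 72 and the lowest for 50, so replicate 3 was one extreme of r_3m for 67 of the 80 genes and for 122 of the other 150. Over all tested genes it was the highest r_3m library for 38.7% and the lowest for 36.3%. Any 1 of 3 libraries is an extreme for many genes, so little is read from these counts. Its depth, 89.0%, was the highest of the r_3m libraries. The part of depth, or of any other property of that library, was not tested.

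The 80 genes were further divided by the level of r_3m replicate 3 relative to replicates 1 and 2, a division made after the values were seen. In 17 genes replicate 3 was at least 1.5 times the mean of replicates 1 and 2. Their median levels were 234, 243 and 481 FPKM in r_3m replicates 1, 2 and 3, beside a median r_1m mean of 1063 FPKM. That replicate 3 was closer to r_1m in them follows from how they were picked. The most extreme was a Cm05 gene at rank 38, with 234, 203 and 559.9 FPKM in r_3m and 838, 849.5 and 847 FPKM in r_1m. A Cm00 gene at rank 44 was much the same, with 153, 163 and 406 FPKM in r_3m and 802, 769.8 and 740.3 FPKM in r_1m. Among the other 150 abundant genes, 12 had replicate 3 at least 1.5 times above the other libraries.

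The opposite was seen in 5 genes (6.25%), whose replicate 3 was lower than the mean of replicates 1 and 2 by at least 1.5 times. Among the other 150 abundant genes it was seen in 4 (2.67%). Their median levels were 203, 156 and 112 FPKM in r_3m replicates 1, 2 and 3. A Cm01 gene at rank 18 showed it most, with 321.4, 156 and 119.9 FPKM in r_3m and 1385, 1359.7 and 1324 FPKM in r_1m. In that gene replicates 1 and 2 also differed, and it had a d of -2.76. Cm09G01413.gene belongs to these 5 genes. The remaining 58 genes had nearly equal medians of 271, 278 and 282 FPKM in the r_3m libraries. Replicates 1 and 2 of r_3m were at least 1.5 times apart in 2 of the 80 genes and in 0 of the other 150 abundant genes.

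**Figure D4:**
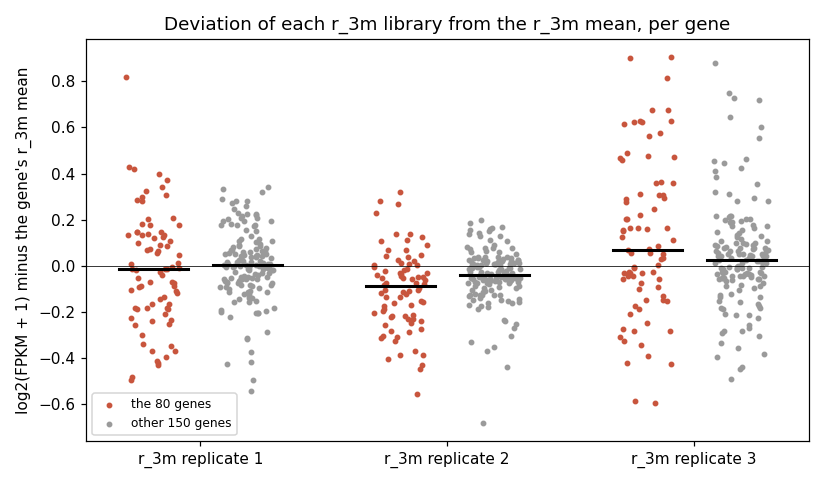
Deviation of log2(FPKM + 1) in each r_3m library from the gene's r_3m mean, for the 80 genes (red) and the other 150 genes of at least 500 FPKM in r_1m (grey); 1 point per gene, black bars are medians. Points spread most in replicate 3, in both directions, and more widely for the 80 genes than for the others.

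In r_1m the 80 genes were highly even, with a median coefficient of variation of 2.33%, against 17.9% in r_3m. Replicate 1 of r_1m was the library that departed most. Without it, the median SD of log2(FPKM + 1) was 0.019, against 0.041 without replicate 2 and 0.026 without replicate 3. With all 3 libraries it was 0.033. In 5 of the 80 genes replicate 1 was at least 1.1 times the mean of replicates 2 and 3, and in none was it lower by that factor. The Cm01 gene at rank 8, described above, was the furthest. A Cm08 gene at rank 12 had 243, 273 and 469.8 FPKM in r_3m and 1814, 1389.8 and 1383 FPKM in r_1m (d of -2.21). A Cm09 gene at rank 73 had 117, 107 and 107 FPKM in r_3m and 636, 517 and 493 FPKM in r_1m (d of -2.31). In these 3 genes the groups remained far apart whichever r_1m library was taken. Among the other 150 abundant genes 11 showed the same excess in r_1m replicate 1.

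The 80 genes were scattered over the ID prefixes. The prefix Cm01 held 20 of them (25%), beside 17.4% of the 230 abundant genes and 14.9% of the tested genes. Cm08 held 11 of the 80, and Cm06 and Cm00 held 1 each. Of the 26 abundant Cm11 genes 4 were among the 80, against 20 of the 40 abundant Cm01 genes and 80 of all 230. Other prefixes had like shares, with 1 of 7 for Cm06, 5 of 10 for Cm04 and 5 of 11 for Cm03. These shares are given as counts, with no test.

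Few of the 80 had IDs close to one another. A pair of Cm01 genes with consecutive ID numbers, at ranks 10 and 15, ran almost in parallel. The second of them had 640.5, 665 and 535 FPKM in r_3m and 1437, 1443 and 1408 FPKM in r_1m (d of -1.22), with the same order of the r_3m libraries as its neighbour given above. Another consecutive Cm01 pair stood at ranks 24 and 32. The first had 265, 216 and 253 FPKM in r_3m and 1099, 1107 and 1144 FPKM in r_1m (d of -2.18). The second had 172, 168 and 122.8 FPKM in r_3m and 1067, 982 and 922 FPKM in r_1m (d of -2.67). These 2 genes differed in the order of their libraries in both groups. Near-identical copies could share reads, and this was not tested.

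A run of 3 consecutive Cm03 IDs was lower in r_3m throughout. Its outer genes are among the 80, at ranks 20 and 9. The gene at rank 20 had 393, 385 and 568 FPKM in r_3m and 1265, 1307 and 1281 FPKM in r_1m (d of -1.52). The gene between them, just under the level limit, had 78.7, 85.7 and 152 FPKM in r_3m and 465, 469.9 and 460.4 FPKM in r_1m (d of -2.13). All 3 were highest in replicate 3 within r_3m and varied little in r_1m.

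The genes 1 ID number away from the 80, which the choice did not use, were mostly at low levels. Of 155 such genes outside the 80, 101 were tested, with a median r_1m mean of 18.0 FPKM. Their median d was -0.37, and 23 of the 101 (22.8%) had a d of -1 or lower, beside 15.6% of all tested genes. For the 210 tested neighbours of the other 150 abundant genes the median d was -0.06, and 41 (19.5%) had a d of -1 or lower. Of these 210, 2 are themselves among the 80 and have such a d by the choice. The 101 hold no gene of the 80, so the sets were not built alike. A d of 1 or higher was found for 8 of the 101 (7.92%) and for 16 of the 210 neighbours of the other abundant genes (7.62%), beside 12.2% of the tested genes. Both sets of neighbours thus held fewer such genes than the tested genes did, and the difference between the sets was not tested.

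Most of the well expressed neighbours were also lower in r_3m, as were most tested genes of that level. Of the 15 neighbours with a mean of at least 100 FPKM in r_1m, 12 had a d below 0. Beside them stood 1223 of the 1816 tested genes of that level outside the 80 (67.3%), which include the 15. A d of -1 or lower was found for 9 of the 15 and for 443 of the 1816 (24.4%). Keeping genes by their r_1m level favours a d below 0 in both sets, so these counts are a description only. A Cm08 neighbour had 13.1, 11.99 and 21.4 FPKM in r_3m and 145, 144 and 148 FPKM in r_1m (d of -3.15). A Cm10 neighbour, next to the gene at rank 3, had 21.8, 30.9 and 42.6 FPKM in r_3m and 205, 199 and 171 FPKM in r_1m (d of -2.56). Not all followed: a Cm01 neighbour of the gene at rank 48 had 2764, 2837 and 2458 FPKM in r_3m and 1595, 1644 and 1666 FPKM in r_1m (d of 0.72). An abundant gene could therefore be higher in r_3m although a gene 1 ID number away was lower.

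**Figure D5:**
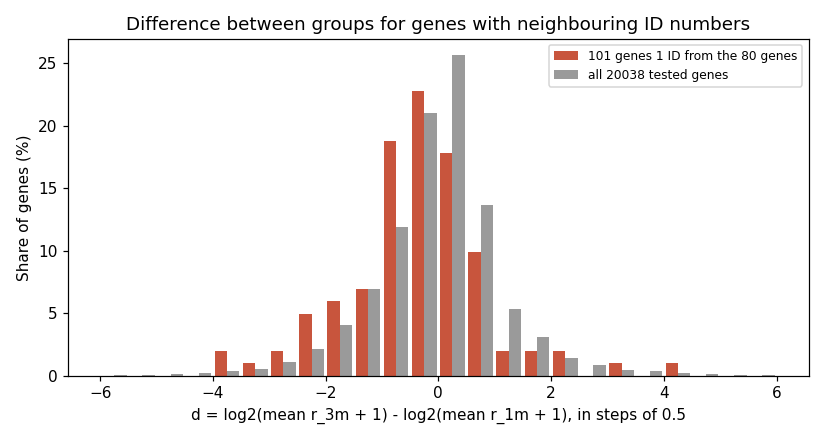
Distribution of d (log2 scale, in steps of 0.5) for the 101 tested genes 1 ID number away from the 80 genes (red) and for all 20038 tested genes (grey), each as a share of its set (%). The neighbours lean to the left, with a median of -0.37 against 0.02 for all tested genes.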

How the data were processed

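The authors deposited 1 table of FPKM for 33991 genes. FastQC 0.11.9 for quality control, Trimmomatic for trimming and STAR 2.7.10b for alignment are named in the submitters' processing notes. Not given in the sources used here are the counter, genome build, annotation and handling of multi-mapped reads. The 6 columns whose names begin the sample titles were used, and the other 207 columns were not used. Group means, d, ranks, shares of total FPKM and SDs of log2(FPKM + 1) were computed from them in Python 3.11.15. limma 3.58.1 (R 4.3.3; eBayes with trend, two-sided, Benjamini-Hochberg adjustment) was fitted to log2(FPKM + 1) of the 20038 genes averaging 1 FPKM or more; fold changes on this scale understate those of low genes. Relative depth was the sharp peak in the ratios of low values (0.5 to 5 FPKM) between libraries. Both procedures were tested on simulated data. The genes, lists and limits were chosen with earlier results of these data known. Genes named in the text were the 10 highest in r_1m, the 5 with the lowest d, those at the limits, and, chosen after their values were seen, those with an outlying library or neighbouring ID. Scaling, pseudocount, filters, limits and left-out libraries were varied.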

Additional observations from a re-analysis of the deposited data

How the results depend on the processing

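The counts of the 80 called lower and of the 80 with separate groups are fixed by the choice and were left out. Of the remaining 102 recomputed values, 96 stayed close to those reported, and no direction turned. Close means within 1.5 times for counts and SDs, and within the spread between libraries for other values. The 102 still include d values and FPKM shares of the 80. The choice used the same values, so nothing is read from their steadiness. The choice gave 222 genes at a minimum of 250 FPKM in r_1m and 31 at 1000 FPKM. It gave 60 under quantile normalization (59 of them among the 80), 84 on a TPM scale (73 among the 80) and 75 of the 80 again without r_3m replicate 3. Requiring 2-fold beside the adjusted p left 3197 of all genes lower, against 6732; counting the averaged r_1m libraries as 1 sample left 3622, and 74 of the 80. In that fit r_1m has no spread of its own and is assumed to vary like r_3m, and the 80 were chosen by the same contrast, so nothing is read from the 74. With 1 library left out, the median SD of the 80 ran from 0.096 to 0.289 in r_3m (lowest without replicate 3) and from 0.019 to 0.041 in r_1m (lowest without replicate 1). No paired analysis was possible because replicate numbers here only follow record order. The reads behind these levels are unknown, so counting error could not be separated from scatter.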
